A study of Mus musculus with 8 samples.

Results

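The surgery by diet interaction asks, for each gene, whether the left ventricle of a mouse answers pressure overload differently when dietary protein is supplied as free essential amino acids. It is the response to transverse aortic constriction (TAC, an operation that narrows the aorta, so that the ventricle pumps against a raised load) under the SFA-EAA diet minus the response under the SFA diet. A response here is the mean log2(value + 1) of the TAC libraries minus that of the sham libraries on the same diet, so a negative interaction means a response that was lower, or more negative, under SFA-EAA. The contrast uses all 8 libraries of the series, 2 in each of 4 groups: TAC SFA-EAA, sham SFA-EAA, TAC SFA and sham SFA. Of the 49671 genes in the table, 16432 reached a value of 1 in at least 2 libraries and were tested. All mice were male C57BL/6N, 8 weeks old at the start, and RNA came from the left ventricle 4 weeks after TAC or the sham operation. SFA was a low fat diet, and in SFA-EAA free essential amino acids took the place of 93.5% of the casein. No genetic change is named for any group, and every response to TAC sets it against sham-operated mice on the same diet. Differences between the diets within the same operation are given as SFA-EAA minus SFA. Whether the libraries of 1 group stem from different mice is not stated in the labels, so the p-values reflect only how much these samples vary, which may be technical.

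A pressure-overloaded ventricle enlarges its muscle cells, which turn on genes of the fetal heart such as the natriuretic peptides, skeletal actin and the slow myosin heavy chain. Fibroblasts around them deposit collagen, largely under the control of transforming growth factor beta (TGF-beta), while muscle cells lower the genes for fatty acid burning, respiration and several ion channels. Branched-chain amino acids, which are essential, are both fuel for heart muscle and a signal to the growth-controlling kinase complex mTORC1.

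The libraries differed in ways that follow the diet. Deposited values summed to 6134490 to 6298743 in the SFA-EAA libraries and to 5136441 to 5956103 in the SFA libraries, and transcripts of the mitochondrial genome took 33.6 to 39.5% of the SFA-EAA sums and 22.1 to 30.3% of the SFA sums. Cardiomyocyte markers summed to between 377300 and 488900 in every library, which fits the labelled tissue. Across 10221 genes, a library's deviation from each gene's mean went with the gene's GC content at a Spearman rho of -0.73 in TAC SFA-EAA replicate 2 and of -0.62 and -0.43 in the sham SFA-EAA libraries. TAC SFA-EAA replicate 1 (0.43) and the 4 SFA libraries (0.34 to 0.52) went the other way. The 2 TAC SFA-EAA libraries therefore stand apart from each other in base composition, and several results that rest on one of them are also given without it. Myl7, the atrial myosin light chain, reached 322 in TAC SFA replicate 2 and 621 in sham SFA replicate 1, while the remaining libraries had 1.28 to 43.0.

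No gene passed the interaction test: 0 of 16432 genes (0%) had an adjusted p under 0.05 in limma with Benjamini-Hochberg adjustment, and the smallest adjusted p was 0.306. At an unadjusted p under 0.05 there were 902 genes (5.49%), 481 of them negative (2.93%) and 421 positive (2.56%). After removal of each library's trend with GC content the same test again called 0 genes, with a smallest adjusted p of 0.055 and 1323 genes under an unadjusted 0.05 (8.05%), split into 4.35% negative and 3.71% positive. With 2 libraries a group this does not show that the 2 diets gave equal responses. The values below therefore describe which genes and gene groups stood farthest from equality, and no single gene is reported as changed.

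Across the 12420 genes with a mean of at least 5, the response under SFA-EAA and the response under SFA had a Pearson r of 0.38 and a Spearman rho of 0.324. The 2 responses share no library, and genes are not independent replicates. In the values as deposited, responses were narrower under SFA-EAA, with an SD across genes of 0.41, against 0.502 under SFA. The SDs were not taken after GC correction or with single libraries left out. Of 418 genes at least 2-fold higher in TAC under SFA, 90 were also at least 2-fold higher under SFA-EAA, 116 lay between 0.5 and 1 (log2), 182 lay within 0.5 of 0 and 30 were lower by 0.5 or more. Of 218 genes at least 2-fold lower in TAC under SFA, 39 were at least 2-fold lower under SFA-EAA, 114 lay within 0.5 of 0 and 16 were higher by 0.5 or more. Read from the other diet, 94 of 262 genes at least 2-fold higher in TAC under SFA-EAA lay within 0.5 of 0 under SFA, and 58 of 163 lower ones did. These classes are cut from the values they describe and carry no test. In 1619 genes (9.85%) all 4 differences between a TAC and a sham library under SFA-EAA lay below all 4 under SFA, and in 1598 genes (9.72%) all 4 lay above.

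**Figure D1:**
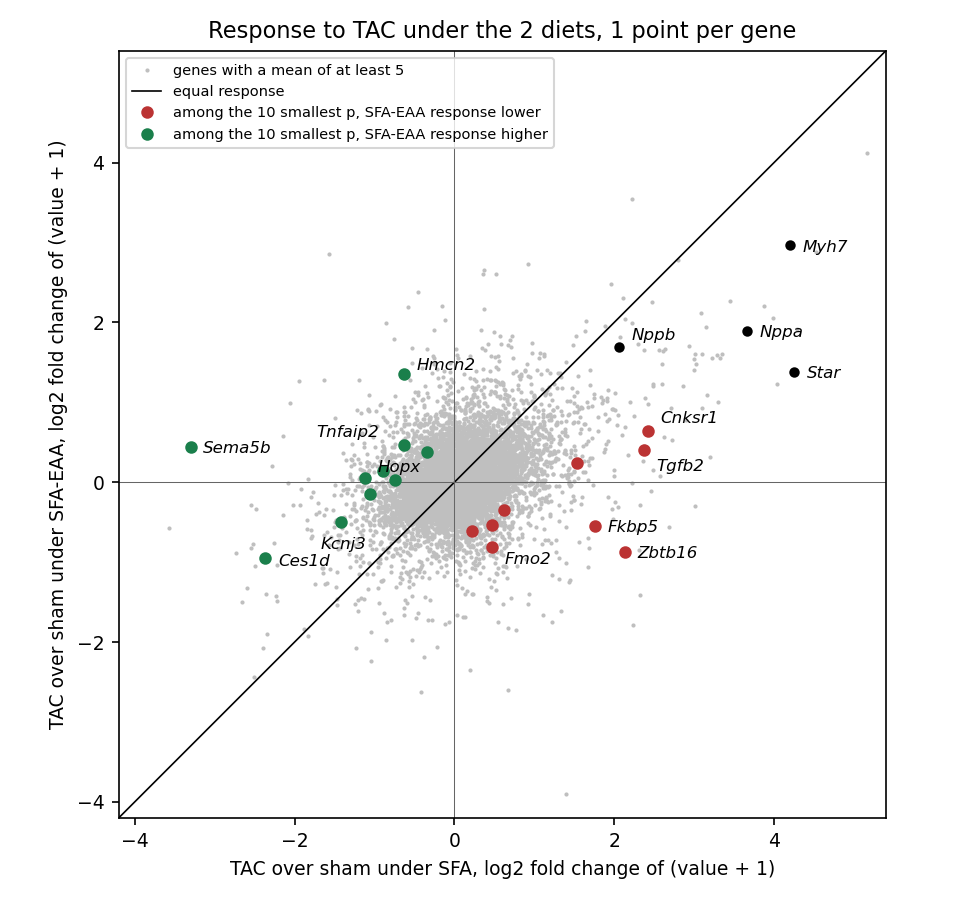
Log2 fold change of TAC over sham under SFA-EAA (vertical) against that under SFA (horizontal), 1 point per gene with a mean value of at least 5, 12420 genes. The diagonal marks equal responses, red and green points are 19 of the 20 genes that the naming rule took for their small interaction p-values, and black points are further named genes. Myh7, Nppa and Star lie right of the diagonal, and Zbtb16 and Fkbp5 lie below 0 on the vertical axis and above 1.5 on the horizontal one.

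Zbtb16 had the smallest p-value. It encodes a zinc finger transcription factor that glucocorticoid hormones induce in many tissues. Zbtb16 stood at 147 and 227 in TAC SFA-EAA, against 295 and 381 in sham SFA-EAA, and at 383 and 368 in TAC SFA, against 106 and 67.1 in sham SFA. Both TAC libraries were below both sham libraries under SFA-EAA and above both under SFA, so the sign of the response differed between the diets. The response was -0.87 under SFA-EAA and 2.14 under SFA (SE 0.26 each), an interaction of -3.01 (SE 0.37, 95% interval -3.85 to -2.17, adjusted p = 0.306). Both operations took part: SFA-EAA minus SFA was -1.03 in TAC hearts and 1.97 in sham hearts.

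Fkbp5, a co-chaperone of the glucocorticoid receptor and one of its best known targets, had the same pattern. Its values were 164 and 227 in TAC SFA-EAA, against 317 and 252 in sham SFA-EAA, and 635 and 324 in TAC SFA, against 165 and 108 in sham SFA. Again the groups did not overlap within either diet, and the order of TAC and sham was opposite in the 2 diets. Its interaction was -2.31 (SE 0.46, adjusted p = 0.75).

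Of 21 tested glucocorticoid-responsive genes, 13 had a negative interaction, with a list median of -0.16 (all genes tested, 0.00), and 6 were negative at an unadjusted p under 0.05 (28.6%, against 2.93% of all genes), while none was positive. The count of 13 ran from 9 to 17 as single libraries were left out, and the median from -0.64 without TAC SFA replicate 2 to 0.10 without TAC SFA replicate 1. Angptl4, a secreted inhibitor of lipoprotein lipase, stood at 11.4 and 10.7 in TAC SFA-EAA, against 32.6 and 30.7 in sham SFA-EAA, and at 21.7 and 24.1 in TAC SFA, against 24.9 and 11.6 in sham SFA. Sult1a1, a sulfotransferase, was at 192 and 159 in TAC SFA-EAA, 299.9 and 298 in sham SFA-EAA, 171 and 132 in TAC SFA, and 168 and 148 in sham SFA. In both, the sham SFA-EAA libraries were the highest of all 8. Pdk4, the kinase that shuts off pyruvate dehydrogenase, had an interaction of -1.08 (SE 0.45), and the metallothionein gene Mt2 one of -1.93 (SE 0.77), with its highest values in TAC SFA (395 and 145).

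Other classical targets of the receptor did not share this pattern. Tsc22d3 lay between 562 and 870.5 in all 8 libraries, with an interaction of -0.16 (95% interval -0.74 to 0.42). The interaction of Klf9 was -0.16 (-0.70 to 0.38), and that of Per1, also a clock gene, 0.38 (-0.45 to 1.20). The clock repressor gene Per2 had 27.7 and 27.6 in TAC SFA-EAA, 49.1 and 53.5 in sham SFA-EAA, 25.5 and 45.6 in TAC SFA, and 29.4 and 29.9 in sham SFA. Its interaction was -1.07 (SE 0.43), with the high values in sham SFA-EAA. Of 21 tested clock genes, 9 had a negative and 12 a positive interaction, at a median of 0.14 that turned to -0.04 without sham SFA replicate 1.

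**Figure D2:**
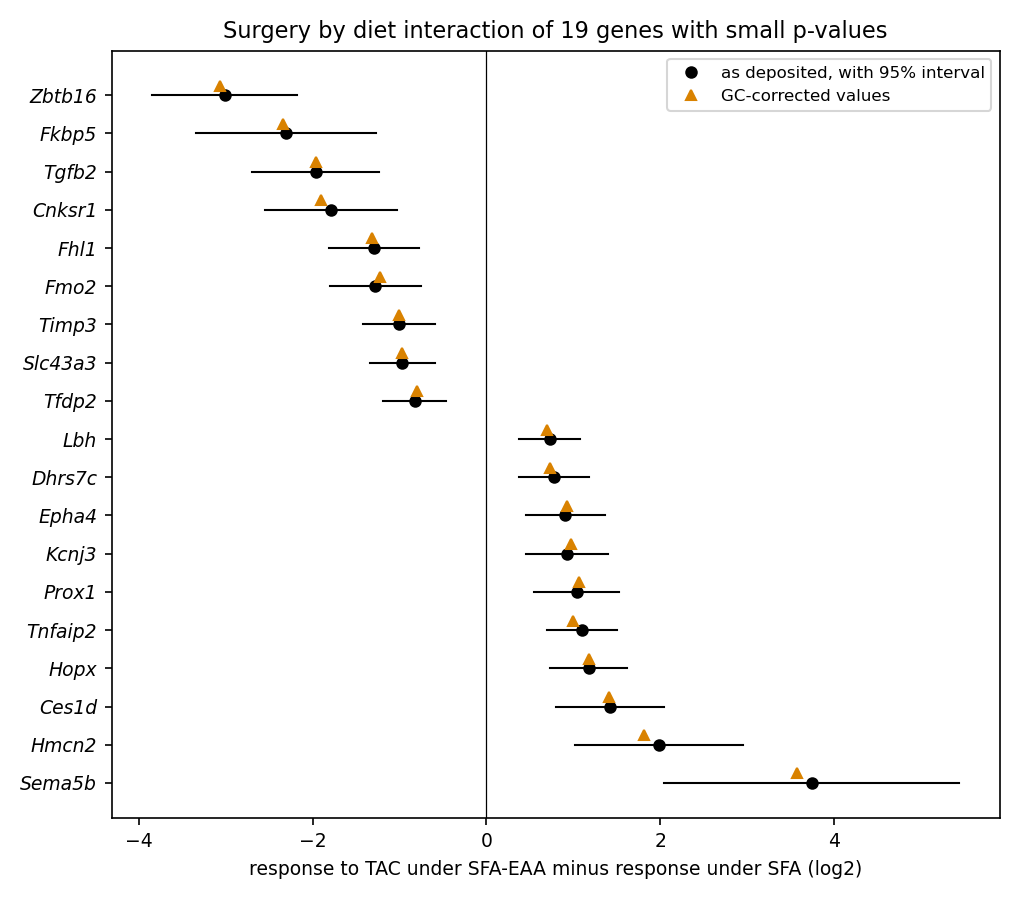
Interaction (response to TAC under SFA-EAA minus response under SFA, log2) of 19 of the 20 genes with the smallest p-values, 9 negative and 10 positive, with 95% intervals from limma (black) and the estimate from GC-corrected values (triangles). The 2 estimates lie close together for all 19 genes. The estimate for Sema5b, listed at 0 in both TAC SFA libraries, depends on the pseudocount, and no interval is adjusted for the number of genes tested.

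Most of the tested genes of TGF-beta signalling (19 of 28) and of the extracellular matrix (54 of 56) had a lower response to TAC under SFA-EAA than under SFA. Tgfb2, a ligand of the family, stood at 47.3 and 49.9 in TAC SFA-EAA, against 34.1 and 38.9 in sham SFA-EAA, and at 116 and 157 in TAC SFA, against 24.9 and 25.7 in sham SFA. TAC was above sham under both diets, without overlap, and both TAC SFA libraries were more than 2-fold above every other library. The responses were 0.41 and 2.37 (SE 0.23 each), an interaction of -1.96 (SE 0.32, adjusted p = 0.698). Skil, whose product restrains SMAD proteins, had an interaction of -0.83 (SE 0.27). Of 28 tested genes of TGF-beta, activin and BMP signalling, 19 had a negative interaction, 5 of them at an unadjusted p under 0.05 (17.9%, against 2.93% of all genes) and none of the 9 positive ones, at a list median of -0.44 that was -0.18 without TAC SFA replicate 2.

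Of 56 tested matrix and fibrosis genes, 54 (96.4%, against 49.9% of all genes) had a negative interaction, 22 of them at an unadjusted p under 0.05 (39.3%, against 2.93%), and neither positive gene reached it. The list's median response was 0.68 under SFA-EAA and 1.54 under SFA, a median fold of 1.60 and 2.91. The median interaction was -0.80 and stayed between -1.19 and -0.49 as single libraries were left out, the smallest without TAC SFA replicate 2. These genes share cells and control, so they are not independent. The median difference between SFA-EAA and SFA was -1.36 (log2) in TAC hearts and -0.51 in sham hearts.

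Col8a1, a short-chain collagen, stood at 205 and 284 in TAC SFA-EAA, against 80.7 and 67.3 in sham SFA-EAA, and at 511 and 630.2 in TAC SFA, against 75.2 and 71.2 in sham SFA. Its sham values were alike on both diets, and the difference lay in the TAC libraries alone, at SFA-EAA minus SFA of -1.23 after TAC and 0.01 after sham. Ctgf, a matricellular TGF-beta target, had 664 and 856 in TAC SFA-EAA, 335 and 418 in sham SFA-EAA, 1725 and 2225 in TAC SFA, and 477 and 378 in sham SFA, an interaction of -1.19 (SE 0.27). Lox, which crosslinks collagen, had 48.3 and 63.4 in TAC SFA-EAA, 37.1 and 27.3 in sham SFA-EAA, 101 and 172 in TAC SFA, and 17.0 and 16.4 in sham SFA, an interaction of -2.12 (SE 0.43). For all of them TAC was above sham under both diets without overlap.

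Thbs4, a thrombospondin of stressed muscle, had 71.9 and 64.6 in TAC SFA-EAA, against 44.2 and 18.3 in sham SFA-EAA, and 339 and 913 in TAC SFA, against 42.6 and 25.5 in sham SFA. Its interaction was -2.81 (SE 0.71), and the 2 TAC SFA libraries themselves differed more than 2-fold. Cilp, a matrix protein that binds TGF-beta, had 234 and 122 in TAC SFA-EAA, against 537 and 1389.6 in TAC SFA. The interaction of Cilp was -1.94 and lay between -2.62 and -1.25 with single libraries left out. Postn, Col3a1 and Col1a1 were less distinct, each with a 95% interval that reached past 0. Postn, a marker of activated fibroblasts, had 463 and 1113 in TAC SFA-EAA, 224 and 155 in sham SFA-EAA, 1777 and 1727 in TAC SFA, and 284 and 136 in sham SFA, and its interaction of -1.21 had a 95% interval of -2.55 to 0.13. Col3a1, a fibrillar collagen, had responses of 1.02 and 1.45, an interaction of -0.43 (95% interval -1.12 to 0.26). Col1a1 had 374 and 165 in TAC SFA-EAA, 139 and 162 in sham SFA-EAA, 1070.0 and 2190.2 in TAC SFA, and 537 and 458 in sham SFA, so it was lower on SFA-EAA after either operation, and its interaction was -0.90 (95% interval -2.15 to 0.35).

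Timp3, an inhibitor of matrix metalloproteinases that was outside the matrix list, had responses of opposite sign. It had 1089 and 1201 in TAC SFA-EAA, against 1635 and 1681 in sham SFA-EAA, and 1424 and 1741 in TAC SFA, against 1199 and 1076 in sham SFA. TAC lay below sham under SFA-EAA and above it under SFA, both without overlap, and the interaction was -1.01 (SE 0.18, adjusted p = 0.698).

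Fibroblast markers had the same direction as the matrix genes. Of 18 tested markers, 15 had a negative interaction, 5 at an unadjusted p under 0.05 (27.8%, against 2.93% of all genes), at a median of -0.42. The median was -0.73 without TAC SFA replicate 1 and -0.26 without TAC SFA replicate 2. Their summed value was 9350 to 11780 in TAC SFA-EAA, 10910 to 11360 in sham SFA-EAA, 13750 to 23680 in TAC SFA and 12930 to 14070 in sham SFA, and none of the 18 was at 0 in any group. Pdgfra, the receptor that defines cardiac fibroblasts, had 137 and 158 in TAC SFA-EAA, 177 and 146 in sham SFA-EAA, 217 and 273 in TAC SFA, and 139 and 165 in sham SFA. The gelatinase gene Mmp2 and Serpinf1, a secreted fibroblast protein, had interactions of -1.11 (SE 0.36) and -1.16 (SE 0.35). In bulk tissue, more cells of a type and more RNA per cell cannot be told apart, and the part of fibroblast number in the matrix result was not tested.

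The promoters of 3 of these genes are shown because they hold a motif of the pathway, and were picked for it. Each runs from 250 bases before to 50 after the start in GRCm38.p6, and capitals mark CAGACA or its reverse complement TGTCTG, the core of a SMAD binding element, the DNA site of the proteins that carry TGF-beta signals.
Tgfb2 promoter, chr1:186705940-186706239, minus strand: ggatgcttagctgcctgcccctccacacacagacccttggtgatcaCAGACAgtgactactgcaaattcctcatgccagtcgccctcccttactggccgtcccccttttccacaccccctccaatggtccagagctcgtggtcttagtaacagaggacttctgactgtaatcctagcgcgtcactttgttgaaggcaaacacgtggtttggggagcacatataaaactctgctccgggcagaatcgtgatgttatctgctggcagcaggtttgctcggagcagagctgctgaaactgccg
Thbs4 promoter, chr13:92794769-92795068, minus strand: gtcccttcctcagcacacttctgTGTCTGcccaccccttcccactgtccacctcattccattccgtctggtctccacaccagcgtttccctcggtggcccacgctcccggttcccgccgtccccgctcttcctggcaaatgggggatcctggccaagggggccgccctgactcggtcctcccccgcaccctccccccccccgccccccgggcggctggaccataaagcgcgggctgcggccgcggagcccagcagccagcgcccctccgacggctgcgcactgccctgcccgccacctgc
Col8a1 promoter, chr16:57754688-57754987, minus strand: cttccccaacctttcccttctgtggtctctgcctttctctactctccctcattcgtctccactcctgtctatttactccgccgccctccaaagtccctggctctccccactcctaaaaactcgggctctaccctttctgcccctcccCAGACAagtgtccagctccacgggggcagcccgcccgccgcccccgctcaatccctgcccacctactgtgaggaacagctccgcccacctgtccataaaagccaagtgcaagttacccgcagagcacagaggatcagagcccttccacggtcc
The match begins 204, 227 and 103 bases before the start in Tgfb2, Thbs4 and Col8a1. Of 37 matrix genes with at least 1 RefSeq promoter, 14 (37.8%) held the motif on either strand of any of their promoters, against 6365 of all 27025 genes with a promoter (23.6%), and 21.0% of single promoters held it. Col3a1 also held it, Cilp, Postn and Timp3 did not, and Skil, Ctgf, Lox and Col1a1 have no entry. A match of 6 letters is a description of the window and says nothing of binding.

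**Figure D3:**
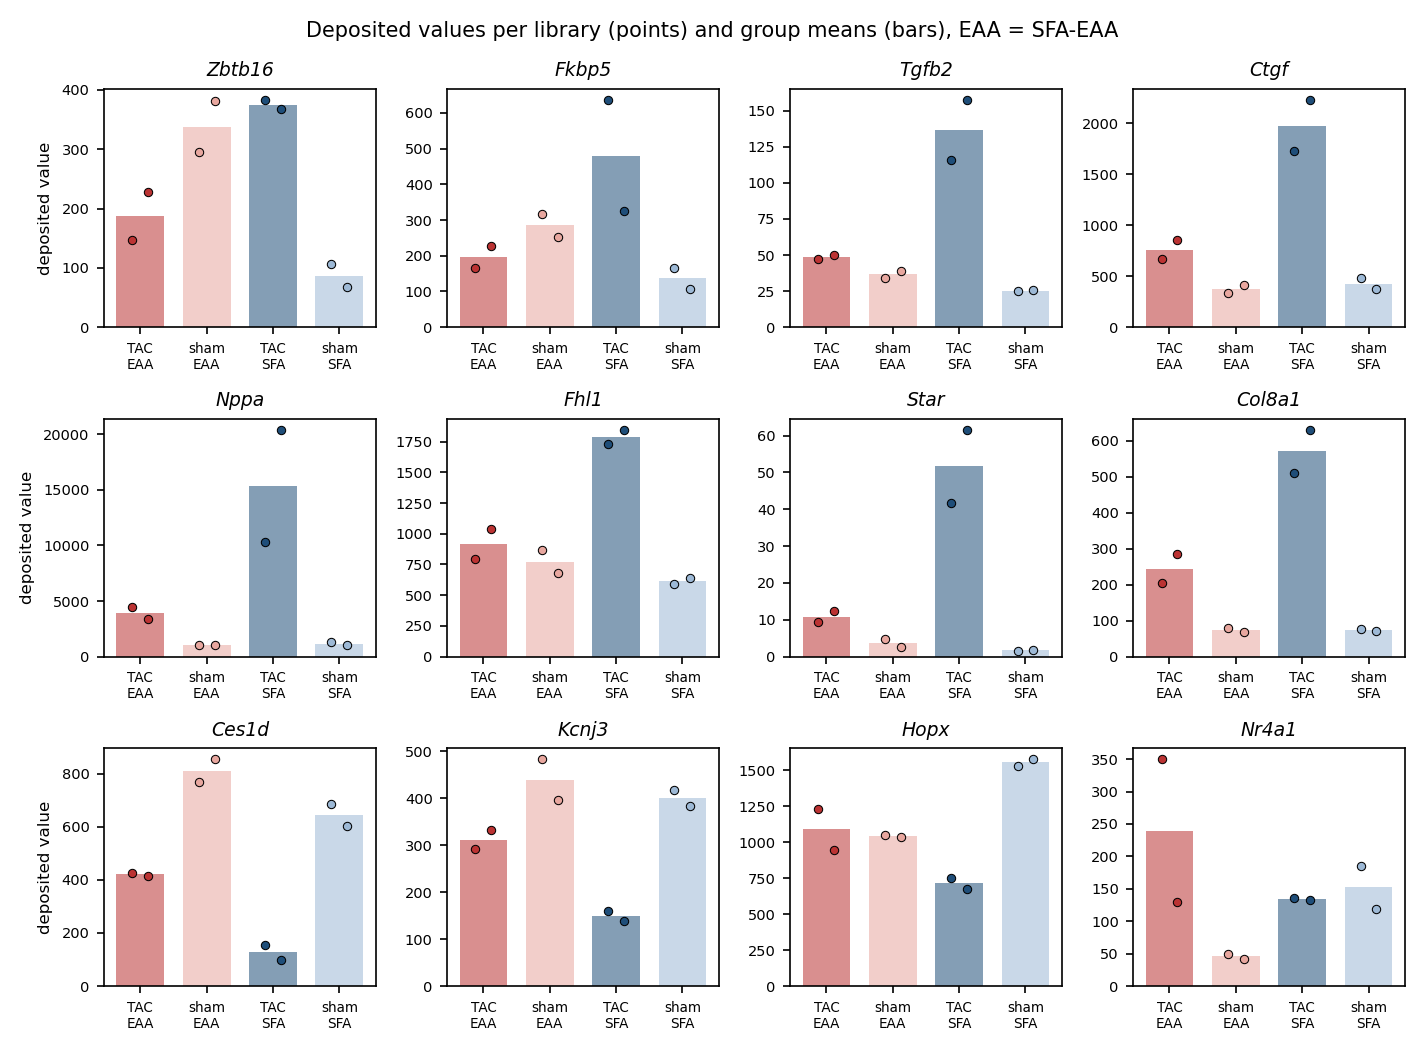
Deposited values of 12 genes in each library (points) and group means (bars), with TAC left of sham for each diet, and EAA standing for SFA-EAA. In Tgfb2, Ctgf, Nppa, Fhl1, Star and Col8a1 both TAC SFA libraries are the highest, in Ces1d, Kcnj3 and Hopx they are the lowest, and in Zbtb16 the sham SFA libraries are the lowest.

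Most genes of muscle cell hypertrophy and the fetal program also had a lower response under SFA-EAA, though TAC was above sham under both diets for nearly all. Of 25 tested genes, 24 were higher in TAC under SFA-EAA and 24 under SFA, while 23 (92.0%) had a negative interaction, 9 of them at an unadjusted p under 0.05 (36.0%, against 2.93% of all genes) and neither positive one. The median response was 0.86 under SFA-EAA and 1.54 under SFA, a median fold of 1.81 and 2.90. The median interaction of -0.72 stayed between -0.91 and -0.53 as single libraries were left out.

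Nppa, the atrial natriuretic peptide gene, had 4437 and 3343 in TAC SFA-EAA, against 1025 and 1046 in sham SFA-EAA, and 10346 and 20406 in TAC SFA, against 1299.5 and 1013 in sham SFA. TAC and sham did not overlap under either diet, and the responses were 1.89 and 3.66, an interaction of -1.77 (SE 0.40, adjusted p = 0.785). The higher TAC SFA library was replicate 2, in which Myl7 was also high, and with single libraries left out the interaction lay between -2.26 and -1.28. Its sister gene Nppb, made by stressed ventricle, differed far less between the diets, at 2771 and 4019 in TAC SFA-EAA, 1122 and 942 in sham SFA-EAA, 4184 and 4697 in TAC SFA, and 1022 and 1101 in sham SFA. Its interaction was -0.36 (95% interval -0.93 to 0.20).

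Myh7, the slow myosin heavy chain, had 6402 and 3016 in TAC SFA-EAA, 686 and 461 in sham SFA-EAA, 10894 and 20121 in TAC SFA, and 569.5 and 1144 in sham SFA. Acta1, skeletal muscle actin, had 5475 and 4484 in TAC SFA-EAA, 1585 and 661 in sham SFA-EAA, 20280.0 and 15142 in TAC SFA, and 1220.0 and 2106 in sham SFA. In both genes the TAC SFA libraries were the highest, while the intervals of the interaction reached past 0, at -2.63 to 0.17 for Myh7 and -2.40 to 0.05 for Acta1. Tnfrsf12a, the receptor of the cytokine TWEAK, had responses of 1.40 and 1.69 and an interaction of -0.29 (95% interval -0.75 to 0.17).

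Among structural stress genes, Fhl1, a LIM protein of the sarcomere, had 794 and 1040.4 in TAC SFA-EAA, against 866 and 682 in sham SFA-EAA, and 1733 and 1847 in TAC SFA, against 590.0 and 644 in sham SFA. TAC and sham overlapped under SFA-EAA and lay far apart under SFA, an interaction of -1.29 (SE 0.23, adjusted p = 0.698). Enah, which elongates actin filaments, had responses of 0.28 and 1.26, and Xirp2, which binds actin at the intercalated disc, of 0.99 and 1.85. Rcan1, an inhibitor of the hypertrophic phosphatase calcineurin and also its target, had responses of 0.86 and 1.88. Nmrk2, a nicotinamide riboside kinase of stressed muscle, had 36.1 and 45.3 in TAC SFA-EAA, 18.3 and 21.1 in sham SFA-EAA, 66.0 and 230.3 in TAC SFA, and 9.97 and 13.6 in sham SFA, an interaction of -2.29 (SE 0.71).

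Star, which carries cholesterol into mitochondria for steroid synthesis, had one of the largest differences. It stood at 9.29 and 12.3 in TAC SFA-EAA, against 4.80 and 2.48 in sham SFA-EAA, and at 41.8 and 61.5 in TAC SFA, against 1.64 and 1.79 in sham SFA. Its interaction was -2.87 (SE 0.62, adjusted p = 0.75). The signalling scaffold Cnksr1 had 77.0 and 67.7 in TAC SFA-EAA, 54.6 and 38.8 in sham SFA-EAA, 127 and 132 in TAC SFA, and 20.7 and 26.2 in sham SFA. Its TAC values were lower on SFA-EAA (-0.83, log2) and its sham values higher (0.95), which add to an interaction of -1.79 (SE 0.34).

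**Figure D4:**
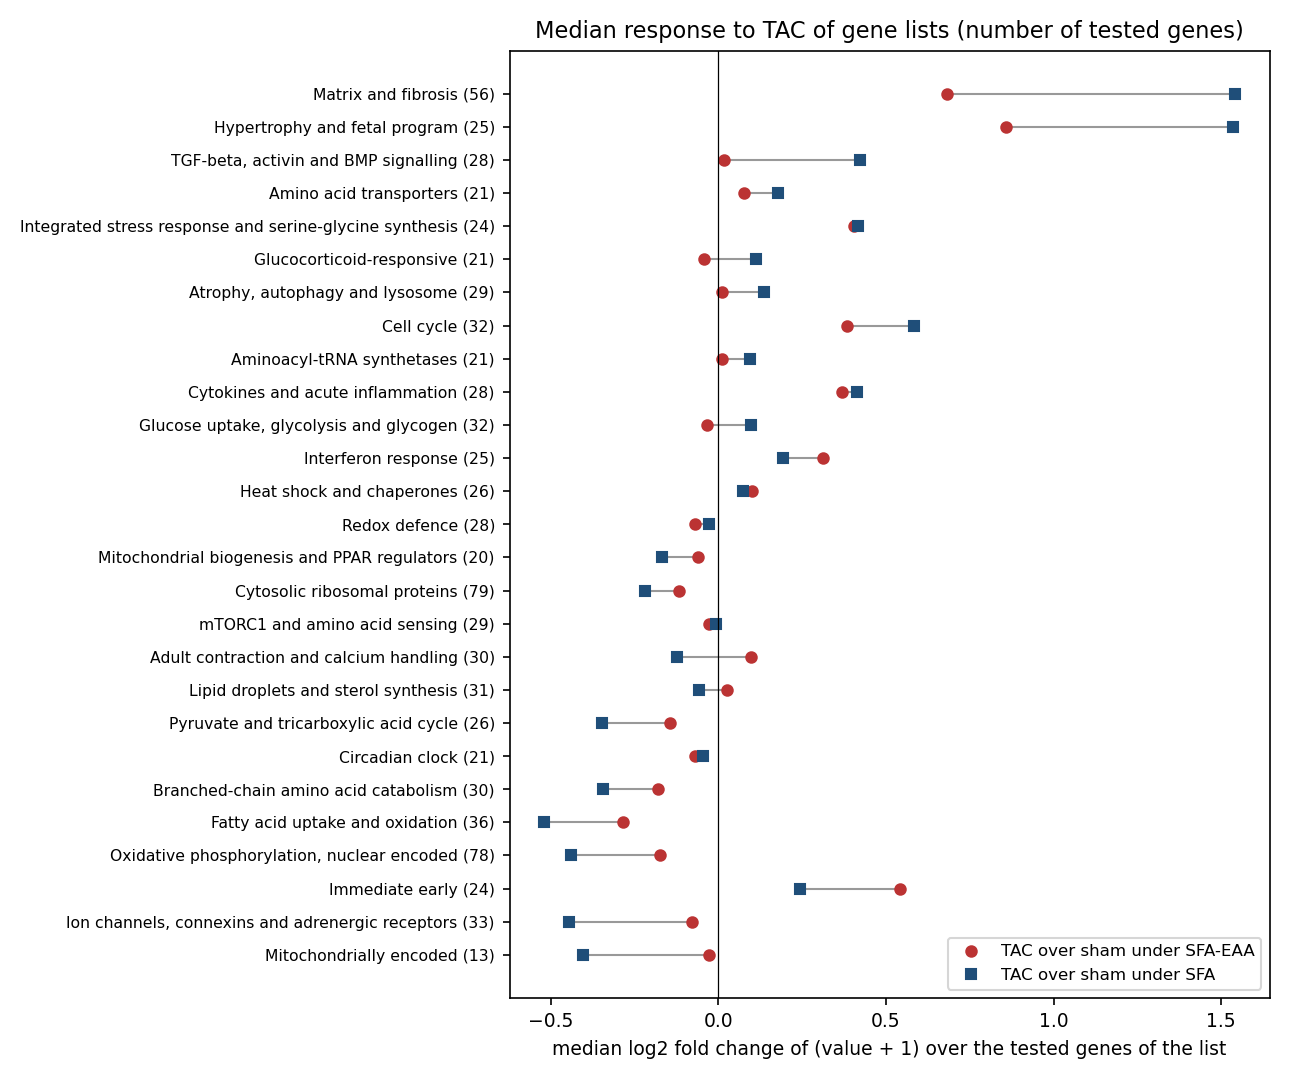
Median log2 fold change of TAC over sham for 27 gene lists, with the number of tested genes in brackets, under SFA-EAA (circles) and SFA (squares). The matrix and hypertrophy lists lie farthest right under SFA (both 1.54) and nearer 0 under SFA-EAA (0.68 and 0.86), and oxidative phosphorylation, fatty acid oxidation and ion channel lists lie left of 0 and nearer to it under SFA-EAA.

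Another set of genes was lower in TAC hearts on SFA and less so, or not at all, on SFA-EAA. Ces1d, a carboxylesterase that breaks down stored lipid, stood at 426 and 416 in TAC SFA-EAA, against 769 and 853 in sham SFA-EAA, and at 155 and 99.2 in TAC SFA, against 687 and 602 in sham SFA. TAC was below sham under both diets, with responses of -0.94 and -2.37 (SE 0.19 each) and an interaction of 1.42 (SE 0.27, adjusted p = 0.75). Plin4, a coat protein of lipid droplets, went the other way, at 735 and 642 in TAC SFA-EAA, 966 and 973 in sham SFA-EAA, 821 and 785 in TAC SFA, and 707 and 725 in sham SFA. Its interaction was -0.66 (SE 0.16).

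Among 33 tested ion channel, connexin and adrenergic receptor genes, 24 had a positive interaction, 7 of them at an unadjusted p under 0.05 (21.2%, against 2.56% of all genes), at median responses of -0.08 under SFA-EAA and -0.45 under SFA. The median interaction was 0.40, but -0.07 without TAC SFA-EAA replicate 1, when 17 of the 33 were negative, and 0.13 without it after GC correction. Kcnj3, an acetylcholine-gated potassium channel subunit that is also an atrial marker, had 291 and 332 in TAC SFA-EAA, against 483 and 397 in sham SFA-EAA, and 160.4 and 139 in TAC SFA, against 418 and 385 in sham SFA. Kcnv2, a modifier subunit of potassium channels, had 44.0 and 35.7 in TAC SFA-EAA, 63.8 and 72.4 in sham SFA-EAA, 9.44 and 7.45 in TAC SFA, and 43.8 and 44.0 in sham SFA. In both genes TAC lay below sham in each diet and the TAC SFA libraries were the lowest of all, with interactions of 0.93 (SE 0.21) and 1.49 (SE 0.37). Gja1, the main ventricular gap junction protein, had opposite signs, at 2353 and 2402 in TAC SFA-EAA, 2108 and 1878 in sham SFA-EAA, 1578 and 1907 in TAC SFA, and 2327 and 2663 in sham SFA, an interaction of 0.78 (SE 0.19).

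Hopx, a homeodomain protein without DNA binding of its own, had 1232 and 949 in TAC SFA-EAA, against 1049.7 and 1036 in sham SFA-EAA, and 754 and 675 in TAC SFA, against 1532 and 1576 in sham SFA. TAC and sham overlapped under SFA-EAA, and the sham SFA libraries were the highest, an interaction of 1.17 (SE 0.19, adjusted p = 0.698). Prox1, a homeobox factor of heart muscle and lymphatic vessels, had 293 and 300.3 in TAC SFA-EAA, 270.4 and 269 in sham SFA-EAA, 163 and 194 in TAC SFA, and 297 and 373 in sham SFA, an interaction of 1.04 (SE 0.21). The transcriptional cofactor gene Lbh had an interaction of 0.73 (SE 0.16).

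Of the other genes with the smallest p-values in this direction, Dhrs7c, a dehydrogenase of the sarcoplasmic reticulum, had responses of 0.03 and -0.75, and the ephrin receptor gene Epha4 of -0.15 and -1.06. Tnfaip2, a gene induced by tumour necrosis factor, had 314 and 291 in TAC SFA-EAA, 211 and 226 in sham SFA-EAA, 235 and 232 in TAC SFA, and 383 and 342 in sham SFA. TAC was above sham under SFA-EAA and below it under SFA without overlap, and the interaction was 1.10 (SE 0.18). The semaphorin gene Sema5b had 8.18 and 4.86 in TAC SFA-EAA, 2.66 and 6.98 in sham SFA-EAA, and 7.72 and 10.2 in sham SFA, but was listed at 0 in both TAC SFA libraries, so no fold is given for it. Cenpf, a kinetochore protein, had 67.7 and 94.0 in TAC SFA-EAA, 166 and 132 in sham SFA-EAA, 28.6 and 15.2 in TAC SFA, and 169 and 124 in sham SFA. Its list did not follow it: 19 of 32 tested cell cycle genes had a negative interaction and 13 a positive one.

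Of 30 tested genes of adult contraction and calcium handling, 25 had a positive interaction, but the median was 0.11 and 2 reached an unadjusted p under 0.05 (6.67%, against 2.56% of all genes). Under quantile normalization 13 of the 30 were negative and the median was 0.028, and without TAC SFA-EAA replicate 1 10 were negative. These 2 genes were Hrc, a calcium-binding protein of the sarcoplasmic reticulum (0.48, SE 0.17), and Cacnb2, a subunit of the L-type calcium channel (0.49, SE 0.22). Atp2a2, the calcium pump of the reticulum, had 64114 and 66916 in TAC SFA-EAA, 80118 and 78296 in sham SFA-EAA, 56123 and 52431 in TAC SFA, and 81151 and 75722 in sham SFA. Its interaction was 0.26 (95% interval -0.35 to 0.86), and it turned to -0.09 under quantile normalization.

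Of 78 tested nuclear genes of oxidative phosphorylation, 77 had a positive interaction (98.7%, against 50.1% of all genes), at median responses of -0.17 under SFA-EAA and -0.44 under SFA and a median interaction of 0.26, and 1 reached an unadjusted p under 0.05 (1.28%, against 2.56%). That gene was Ndufs3 of complex I, with 1732 and 1490.5 in TAC SFA-EAA, 1611 and 1645 in sham SFA-EAA, 1376 and 1266 in TAC SFA, and 1784 and 1776 in sham SFA. The direction rested on TAC SFA-EAA replicate 1 in part: without it 27 of the 78 genes had a negative interaction and the median was 0.09. The 13 tested genes of the mitochondrial genome had 10 positive interactions at a median of 0.41, which was 0.19 without TAC SFA-EAA replicate 2 and 0 under quantile normalization. mt-Nd6, the 1 among them at an unadjusted p under 0.05, had 3035 and 2638 in TAC SFA-EAA, 1974 and 2249 in sham SFA-EAA, 1784 and 1151 in TAC SFA, and 2010.5 and 2182 in sham SFA, and the shares of mitochondrial transcripts given above differed with the diet.

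In the list of fatty acid uptake and oxidation, 29 of 36 tested genes had a positive interaction (80.6%, against 50.1% of all genes). The median responses were -0.28 under SFA-EAA and -0.52 under SFA. Without TAC SFA-EAA replicate 1, 12 rather than 7 of them were negative. Positive at an unadjusted p under 0.05 were the beta-oxidation enzyme genes Eci1 (0.58, SE 0.21) and Hadh (0.52, SE 0.21), and negative were Angptl4 and Pdk4, described above. The share was 5.56% in each direction, against 2.56% positive and 2.93% negative over all genes. Eci1 had 1419.9 and 1039 in TAC SFA-EAA, 1432 and 1353 in sham SFA-EAA, 847 and 753 in TAC SFA, and 1384 and 1347 in sham SFA. Cpt1b, which admits long-chain fatty acids to mitochondria, had no clear difference, at 0.31 (95% interval -0.77 to 1.39). Of 26 genes of pyruvate use and the tricarboxylic acid cycle, 24 were positive at a median of 0.13, and Mpc2 of the mitochondrial pyruvate carrier had the smallest p-value (0.39, SE 0.17).

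Since the SFA-EAA diet supplies branched-chain amino acids in free form, the genes that break them down follow. Of 30 tested, 20 had a positive interaction at a median of 0.20, with median responses of -0.18 under SFA-EAA and -0.34 under SFA, and 1 reached an unadjusted p under 0.05 (3.33%, against 2.56%). Ppm1k, whose product switches on the branched-chain dehydrogenase complex by removing phosphate, had 461 and 557 in TAC SFA-EAA, 627 and 639 in sham SFA-EAA, 290.3 and 297 in TAC SFA, and 447 and 532 in sham SFA. TAC was below sham in each diet without overlap, and the interaction of 0.41 had a 95% interval of -0.03 to 0.85. Bckdha, a subunit of that complex, had 1898 and 781 in the 2 TAC SFA-EAA libraries, a spread that left its interaction at 0.29 (95% interval -0.78 to 1.36). Pccb, of propionate breakdown, had 0.36 (SE 0.16). Bcat1, the cytosolic transaminase, had 0.027 and 5.91 in TAC SFA-EAA, 3.9 and 4.9 in sham SFA-EAA, 23.0 and 12.4 in TAC SFA, and 5.2 and 6.5 in sham SFA.

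Glucose genes were mixed, with 18 of 32 negative and 14 positive interactions. Pfkp, a phosphofructokinase isoform, had 348 and 351 in TAC SFA-EAA, 262 and 219.7 in sham SFA-EAA, 503 and 600.5 in TAC SFA, and 266 and 224 in sham SFA, an interaction of -0.63 (SE 0.21). The insulin-sensitive glucose transporter gene Slc2a4 had responses of -0.19 and -0.56, an interaction of 0.37 (95% interval -0.05 to 0.80). The basal transporter gene Slc2a1 had -0.07 and 0.42, an interaction of -0.49 (95% interval -1.29 to 0.31).

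Amino acid transport and sensing genes did not share a direction. Of 21 tested amino acid transporter genes, 12 had a negative and 9 a positive interaction, at a median of -0.36. With single libraries left out, that median ran from -0.37 to -0.16. Slc7a1, a carrier of lysine and arginine, had 219.6 and 277 in TAC SFA-EAA, 231 and 279 in sham SFA-EAA, 149.9 and 166 in TAC SFA, and 403 and 264 in sham SFA, so TAC and sham overlapped on SFA-EAA and not on SFA. Its interaction was 1.00 (SE 0.30), whereas that of the glutamine carrier gene Slc1a5 was -1.23 (SE 0.43). Slc7a7, another carrier of basic amino acids, was lowest in sham SFA-EAA (4.97 and 3.73, against 9.03 to 14.2 in the other libraries). Of 29 tested genes of mTORC1 and amino acid sensing, 12 were negative and 17 positive.

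The sestrin genes Sesn1 and Sesn3, whose products respond to stress and restrain mTORC1, belong to that list. They gave its 2 negative interactions at an unadjusted p under 0.05 (6.90%, against 2.93% of all genes), and 2 others were positive (6.90%, against 2.56%). Sesn3 had 87.3 and 96.3 in TAC SFA-EAA, 132 and 131 in sham SFA-EAA, 121 and 114 in TAC SFA, and 88.4 and 106 in sham SFA, and Sesn1 had 694 and 993 in TAC SFA-EAA, 1004 and 1076 in sham SFA-EAA, 855 and 794 in TAC SFA, and 659.5 and 666 in sham SFA. In both, TAC lay below sham under SFA-EAA and above it under SFA without overlap, with interactions of -0.80 (SE 0.23) and -0.64 (SE 0.23). Foxo3, a transcription factor that amino acid and insulin signals hold in check, had 513 and 508 in TAC SFA-EAA, 678 and 689 in sham SFA-EAA, 483 and 512 in TAC SFA, and 449 and 457 in sham SFA. Its difference lay in the sham hearts, at SFA-EAA minus SFA of 0.04 after TAC and 0.59 after sham. In serine and glycine synthesis, Psat1 had an interaction of -1.48 (SE 0.62) and Shmt1 one of 0.92 (SE 0.35).

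A further set of genes owed its interaction mainly to the sham hearts. Fmo2, a flavin monooxygenase, had 174 and 162 in TAC SFA-EAA, against 331 and 264 in sham SFA-EAA, and 183 and 208 in TAC SFA, against 129 and 154 in sham SFA. Tfdp2, a partner of E2F transcription factors, had 379 and 387 in TAC SFA-EAA, 584 and 585 in sham SFA-EAA, 339 and 362 in TAC SFA, and 313 and 290.4 in sham SFA. In both the sham SFA-EAA libraries were the highest of the 8, and SFA-EAA minus SFA was -0.22 and 0.13 in TAC hearts but 1.06 and 0.95 in sham hearts. Their interactions were -1.28 (SE 0.23, adjusted p = 0.698) and -0.83 (SE 0.16, adjusted p = 0.75). Slc43a3, a nucleobase transporter, was split between the operations (-0.42 in TAC and 0.55 in sham hearts), an interaction of -0.97 (SE 0.17).

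Of the immediate early genes, which stretch and hormones switch on within minutes, the 3 with the smallest p-values were lowest in sham SFA-EAA. Nr4a1, an orphan nuclear receptor, had 349.6 and 129.9 in TAC SFA-EAA, against 49.6 and 41.6 in sham SFA-EAA, and 136 and 132 in TAC SFA, against 185 and 119 in sham SFA. The interaction of 2.35 (SE 0.56, adjusted p = 0.785) came with an SFA-EAA minus SFA difference of 0.67 in TAC hearts and -1.69 in sham hearts. With single libraries left out, the interaction of Nr4a1 lay between 1.644 and 3.065. Atf3, a stress-induced transcription factor, had 94.4 and 72.7 in TAC SFA-EAA, 25.3 and 20.2 in sham SFA-EAA, 61.7 and 71.0 in TAC SFA, and 39.0 and 40.6 in sham SFA. Fosl2, a subunit of the AP-1 factor, had 173 and 172 in TAC SFA-EAA, 112 and 116 in sham SFA-EAA, 162 and 172 in TAC SFA, and 169 and 145 in sham SFA. Of 24 tested immediate early genes, 18 had a positive interaction, 3 of them at an unadjusted p under 0.05 (12.5%, against 2.56% of all genes), at a median of 0.33 that was 0.19 without sham SFA-EAA replicate 1. The list's median difference between SFA-EAA and SFA was -0.29 in TAC hearts and -0.58 in sham hearts. Hspa1a, an inducible heat shock protein with a near-identical neighbour gene with which reads may be shared, was likewise lowest in sham SFA-EAA, at 1.48 and 4.76, against 9.17 to 40.9 elsewhere.

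The genes of MHC class II, which present antigen on B cells, dendritic cells and some macrophages, had the same shape. H2-Ab1 had 197 and 98.1 in TAC SFA-EAA, against 36.1 and 60.3 in sham SFA-EAA, and 218 and 157 in TAC SFA, against 255 and 192 in sham SFA. H2-Aa had 267 and 279 in TAC SFA-EAA, 101 and 191 in sham SFA-EAA, 352 and 226 in TAC SFA, and 406 and 334 in sham SFA. Cd74, the invariant chain, had 559 and 379 in TAC SFA-EAA, 163 and 294 in sham SFA-EAA, 765 and 528 in TAC SFA, and 775 and 639 in sham SFA. In all of them both sham SFA-EAA libraries were the lowest of the 8, and TAC and sham overlapped under SFA. The interactions were 1.81 (SE 0.50), 1.35 (SE 0.42) and 1.22 (SE 0.42), and that of H2-Eb1 was 1.26 (SE 0.39). Ciita, the master regulator of these genes, had 7.19 and 7.26 in TAC SFA-EAA, 1.22 and 1.19 in sham SFA-EAA, 4.71 and 10.6 in TAC SFA, and 7.997 and 3.64 in sham SFA.

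Of 15 tested lymphocyte and MHC class II markers, 12 had a positive interaction, 4 of them at an unadjusted p under 0.05 (26.7%, against 2.56% of all genes), and these were H2-Aa, H2-Ab1, H2-Eb1 and Cd74. Their summed value was 954.6 to 1294 in TAC SFA-EAA, 386.2 to 666.4 in sham SFA-EAA, 1146 to 1673 in TAC SFA and 1405 to 1778 in sham SFA. Macrophage markers did not follow, with 13 of 18 positive, none at an unadjusted p under 0.05 and a median of 0.19 that turned to -0.03 without TAC SFA-EAA replicate 2. Whether fewer antigen-presenting cells lay in the sham SFA-EAA samples was not tested.

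The promoters of 2 genes of this family in RefSeq are shown because they carry a shared element. Capitals mark CTGATTGG (reverse complement CCAATCAG), the Y box of MHC class II promoters, an inverted CCAAT sequence, in the same window and build as above.
H2-Aa promoter, chr17:34287774-34288073, minus strand: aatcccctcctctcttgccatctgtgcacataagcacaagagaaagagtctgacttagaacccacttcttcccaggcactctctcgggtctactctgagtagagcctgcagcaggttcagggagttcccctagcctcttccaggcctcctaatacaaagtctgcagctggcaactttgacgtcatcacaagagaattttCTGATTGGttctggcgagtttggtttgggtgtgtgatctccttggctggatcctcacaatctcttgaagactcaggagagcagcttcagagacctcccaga
H2-Eb1 promoter, chr17:34305617-34305916, plus strand: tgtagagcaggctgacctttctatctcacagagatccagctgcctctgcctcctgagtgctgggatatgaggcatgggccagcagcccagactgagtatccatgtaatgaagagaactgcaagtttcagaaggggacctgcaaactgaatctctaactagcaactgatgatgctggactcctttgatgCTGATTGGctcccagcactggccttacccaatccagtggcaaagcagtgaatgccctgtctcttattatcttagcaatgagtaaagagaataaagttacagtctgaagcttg
The match begins 51 bases before the start in H2-Aa and 62 bases before it in H2-Eb1, and 1346 of 32851 mouse promoters (4.1%) hold it on either strand.

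Of the 12420 genes with a mean of at least 5, 75 (0.604%) had responses of opposite sign, at least 2-fold under 1 diet and at least 0.5 (log2) under the other. In 49 of them TAC was lower under SFA-EAA and higher under SFA, and in 26 the reverse, and 28 of the 75 had no overlap of TAC and sham under either diet. Among all genes tested, such a separation with TAC lower under SFA-EAA and higher under SFA was found in 2.39%, and the reverse in 1.94%. Among those with the smallest p-values, Hmcn2, a matrix protein of the hemicentin family, had 94.3 and 81.6 in TAC SFA-EAA, 28.0 and 40.7 in sham SFA-EAA, 80.6 and 47.3 in TAC SFA, and 112 and 83.1 in sham SFA. Ptafr, the receptor of platelet-activating factor, had 12.3 and 12.0 in TAC SFA-EAA, 3.74 and 3.64 in sham SFA-EAA, 9.46 and 8.40 in TAC SFA, and 12.8 and 13.7 in sham SFA. Vegfc, the growth factor of lymphatic vessels, had 44.1 and 30.5 in TAC SFA-EAA, 17.5 and 17.0 in sham SFA-EAA, 23.6 and 29.7 in TAC SFA, and 38.0 and 38.7 in sham SFA. In these 3 genes the sham SFA-EAA libraries were the lowest and sham lay above TAC under SFA. Gpc3, a glypican that binds growth factors, had TAC below sham under SFA-EAA while the groups overlapped under SFA, at 10.3 and 8.51 in TAC SFA-EAA, 26.7 and 42.8 in sham SFA-EAA, 16.1 and 32.4 in TAC SFA, and 19.98 and 11.8 in sham SFA, an interaction of -2.29 (SE 0.62). Lrrc4b, a synaptic adhesion protein, had 92.0 and 21.3 in the TAC SFA-EAA libraries, and these 2 values lay on either side of sham SFA-EAA (25.2 and 34.6).

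Some markers of vessel wall and markers of the heart's outer lining stood apart between the groups, though none passed the interaction test. Whether they bear on the genes above was not tested. Myh11, the smooth muscle myosin, had 139 and 105 in TAC SFA-EAA, 306 and 266 in sham SFA-EAA, 195 and 265 in TAC SFA, and 106 and 246 in sham SFA. Tagln, an actin-binding protein of smooth muscle, had 118 and 97.0 in TAC SFA-EAA, 286 and 193 in sham SFA-EAA, 179 and 324 in TAC SFA, and 102 and 243 in sham SFA. TAC lay below sham under SFA-EAA, and the groups overlapped under SFA, where the libraries of each group differed widely. The interactions were -1.73 (SE 0.49) and -1.74 (SE 0.57), and that of Acta2, smooth muscle actin, was -1.17 (SE 0.44). Of 15 tested smooth muscle and pericyte markers, 11 had a negative interaction (49.9% of all genes had one) and 4 a positive one. The list median of -0.25 lay nearer 0 than the values of Myh11, Tagln and Acta2. Of the 15 markers, 3 were negative at an unadjusted p under 0.05 (2.93% of all genes) and 1 was positive (2.56%). With single libraries left out, the median ran from -0.51 to -0.16. The list's summed value was 6741 to 7595 in TAC SFA-EAA, 8793 to 9210 in sham SFA-EAA, 6752 to 7196 in TAC SFA and 7013 to 8023 in sham SFA.

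All 9 tested epicardial and mesothelial markers had a negative interaction, 4 of them at an unadjusted p under 0.05 (44.4%, against 2.93% of all genes). Upk3b, a uroplakin of mesothelium, was at 0 in both TAC SFA-EAA libraries, against 15.3 and 12.8 in sham SFA-EAA, 2.67 and 35.6 in TAC SFA, and 9.83 and 0.81 in sham SFA. Lrrn4, a surface protein of mesothelium, had 0.002 and 0.015 in TAC SFA-EAA, against 8.20 and 8.04 in sham SFA-EAA, 0.90 and 7.48 in TAC SFA, and 2.71 and 0 in sham SFA. The keratin gene Krt18 had 5.11 and 0.12 in TAC SFA-EAA, 4.89 and 6.95 in sham SFA-EAA, 2.76 and 15.8 in TAC SFA, and 0 and 0.91 in sham SFA. The summed value of the list was 18.6 and 25.3 in TAC SFA-EAA, 72.1 and 63.9 in sham SFA-EAA, 39.5 and 145 in TAC SFA, and 41.3 and 21.8 in sham SFA. The list's median of -2.88 was -1.53 without TAC SFA replicate 2 and depends on the pseudocount (-4.69 at 0.25 and -1.20 at 5). How far outer lining, vessel wall or atrial tissue in single samples moves the genes described above was not tested.

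**Figure D5:**
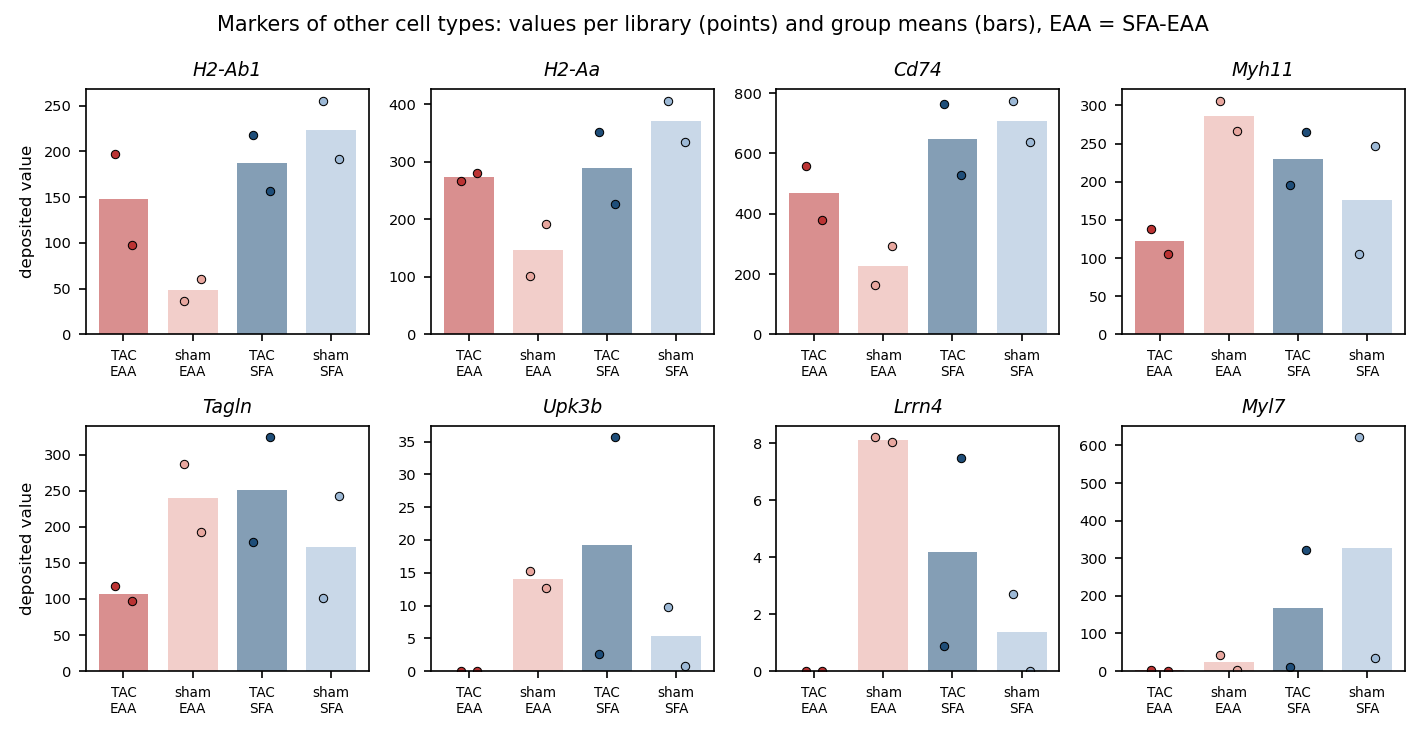
Deposited values of 8 marker genes in each library (points) and group means (bars), TAC left of sham for each diet, and EAA standing for SFA-EAA. H2-Ab1, H2-Aa and Cd74 are lowest in both sham SFA-EAA libraries, Upk3b and Lrrn4 are at or near 0 in both TAC SFA-EAA libraries, and Myl7 is high in TAC SFA replicate 2 (322) and sham SFA replicate 1 (621).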

How the data were processed

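Polyadenylated left ventricular RNA was prepared with a stranded kit and sequenced in 8 libraries, per the labels' protocols. Reads were aligned with STAR 2.5 to GRCm38 and normalized with edgeR by the authors, per the submitters' processing notes. What counted the reads, on which annotation, with or without strand and after which filters is not stated in those notes or labels. Overlapping genes and near-identical copies may therefore share reads. The deposited values are a normalized signal per gene and library, not whole counts, so no count test was run, although the design had also foreseen counts. They summed to 5136441 to 6298743 per library, and the number of reads behind them is unknown.

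Groups came from the labels. Values were tested as log2(value + 1) with limma-trend (limma 3.58.1, R 4.3.3), fitting the mean of each of the 4 groups with a common residual variance, for the 16432 genes that reached 1 in 2 or more libraries. Folds taken on log2(value + 1) are too small for low genes. P-values are two-sided, adjusted over all genes tested by Benjamini and Hochberg's method, with a threshold of 0.05. Of the 49671 genes, 29103 were at 0 in every library. For the GC correction, every library's deviations were smoothed against transcript GC content (loess, span 0.3) and the curve subtracted, with GC content known for 99.8% of the tested genes. Other settings were other pseudocounts and filters, median-of-ratios and quantile scaling, library weights, no variance trend, a 1.5-fold minimum, a replicate block and leaving out each library. The fit was also run on simulated data that held no trend with GC content, so that run does not bear on the GC trends of these libraries.

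The contrast, the gene lists, the markers and the naming rule were chosen with earlier results of these data known, so no list is independent evidence. The rule named, per direction, the 10 genes with the smallest p-values and a mean of at least 5, up to 3 genes per list, a panel of 20 genes and 10 genes with opposite responses, leaving out predicted genes. Sult1a1, Mt2, Tsc22d3, Klf9, Per1, Thbs4, Cilp, Xirp2, Nmrk2, Rcan1, Tnfrsf12a, Cd74, Ciita and Myl7 are list members outside that rule, chosen after their values were seen. A few genes that the rule takes are not reported here, though counts over lists and over all genes include them. Promoters are RefSeq's for GRCm38.p6. Of the 103 genes whose values were followed through all settings, 78 had an entry. Tables were made with pandas 2.3.3 and figures with matplotlib 3.10.9 (Python 3.11.15).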

Additional observations from a re-analysis of the deposited data

Results flagged for a closer look

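In 23 of the 103 genes followed through all settings, TAC and sham libraries did not overlap under either diet and stood in opposite order. The naming rule took genes for small interaction p-values and for opposite responses, so this count cannot be read against the shares over all genes. Among all 16432 genes tested, 392 (2.39%) had TAC lower under SFA-EAA and higher under SFA, and 319 (1.94%) the reverse. The interaction test, which tests the difference between the diets itself, gave the 23 genes adjusted p-values of 0.306 to 0.878 in limma, so none of the differences passed. TAC was lower under SFA-EAA and higher under SFA in 13, with interactions of -3.01 for Zbtb16, -2.31 for Fkbp5, -1.01 for Timp3, -0.66 for Plin4, -0.64 for Sesn1, -0.80 for Sesn3, -1.48 for Psat1, -0.97 for Slc43a3, -1.28 for Fmo2, -0.83 for Tfdp2 and -0.56 for Foxo3. The other 2 were Gria3, a glutamate receptor subunit (-2.31), and Slc35d2, a nucleotide sugar transporter (-3.17). Slc35d2 had 3.11 and 6.07 in TAC SFA-EAA, 7.32 and 10.4 in sham SFA-EAA, 13.3 and 12.6 in TAC SFA, and 0.70 and 3.66 in sham SFA. TAC was higher under SFA-EAA and lower under SFA in 10, with interactions of 1.98 for Hmcn2, 2.01 for Ptafr, 1.56 for Vegfc, 1.10 for Tnfaip2, 1.04 for Prox1, 0.97 for mt-Nd6, 0.92 for Shmt1, 0.78 for Gja1, 0.73 for Lbh and 0.48 for Esrrb, a nuclear receptor of mitochondrial genes.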

How the results depend on the processing

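As deposited, the interaction called 0 genes at other pseudocounts, filters, scalings, library weights, without a variance trend, at a 1.5-fold minimum and with each library left out, and so did GC-corrected values with all libraries. With the replicate block 0 genes were called (716 at an unadjusted p under 0.05), and 3 with the block and GC-corrected values (2 negative, Zbtb16 among them, and 1 positive, Nr4a1). Same-numbered deviations from group means correlated at -0.27 to 0.039 over 6 pairs of groups, so no shared replicate effect was seen. These deviations still held each library's trend with GC content, so they cannot exclude such an effect. As single libraries were left out, with the lone library assumed to vary like the other groups, GC-corrected values called 0 to 20 genes, namely 20 without TAC SFA-EAA replicate 2, 16 without TAC SFA replicate 1 and 0 otherwise. Zbtb16 was in both sets. Of 2779 values of named genes under other settings, 2749 kept their direction and side of the threshold, 16 passed it and 14 changed sign. The sign changes were Atp2a2 (-0.088 under quantile normalization) and, with single libraries left out, as deposited or GC-corrected, Per1 (-0.063 to 0.82), Bckdha (-0.35 to 0.93), Cpt1b (-0.15 to 0.78), Tsc22d3 (-0.43 to 0.10) and Klf9 (-0.42 to 0.10), whose estimates with all libraries lay between -0.16 and 0.38. Of 1012 list medians, 917 moved by less than the spread between replicates. At a pseudocount of 5, genes higher in TAC under SFA numbered 45 with a like response and 114 with one near 0 under SFA-EAA, lower ones 18 and 59, those with responses under SFA-EAA alone 33 higher and 20 lower, and opposite ones 23. With single libraries left out and GC correction these counts ran from 77 to 117, 152 to 308, 37 to 54, 91 to 171, 69 to 137, 63 to 133 and 65 to 119. Without a filter, 2595 genes had responses under SFA-EAA above those under SFA and 2561 below. They were 1749 and 1903 with GC correction, and 2778 to 3380 and 2885 to 3822 when single libraries were also left out, which leaves fewer differences to separate. Low signal limits genes with values of a few units, such as Slc35d2, Sema5b and the mesothelial markers, and 2 libraries a group limit every estimate: the 95% interval of Myh7, for instance, reached from -2.63 to 0.17.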

Other observations

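Antioxidant, muscle-wasting and heat shock lists held genes that stood apart, while the list medians lay between -0.11 and 0.00. Of 28 tested redox genes, 14 had a negative and 14 a positive interaction, at a median of 0.00. Nox4, an oxidase that makes hydrogen peroxide, is on that list. It had 21.5 and 8.87 in TAC SFA-EAA, 5.05 and 7.11 in sham SFA-EAA, 27.4 and 64.5 in TAC SFA, and 3.24 and 4.51 in sham SFA, an interaction of -2.07 (SE 0.77). TAC was above sham under both diets without overlap. Of 29 genes of atrophy, autophagy and lysosome, 19 were negative and 10 positive, at a median of -0.11. Among them Ctsk, a collagen-cleaving cathepsin, had 29.8 and 45.5 in TAC SFA-EAA, 20.7 and 23.5 in sham SFA-EAA, 54.0 and 88.1 in TAC SFA, and 13.5 and 19.2 in sham SFA, an interaction of -1.32 (SE 0.49). Trim63, a ubiquitin ligase of muscle wasting, had 1328.7 and 1244 in TAC SFA-EAA, 1042 and 950.1 in sham SFA-EAA, 1165 and 1054 in TAC SFA, and 1087.5 and 1190 in sham SFA. TAC and sham were apart under SFA-EAA and overlapped under SFA, and its interaction was 0.41 (SE 0.16). The 26 tested heat shock and chaperone genes were split 13 to 13. Of them, 3 were positive at an unadjusted p under 0.05 (11.5%, against 2.56% of all genes) and none was negative. Dnajb1, a partner of heat shock protein chaperones, had an interaction of 0.90 (SE 0.34).

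The remaining lists are given as counts of negative and positive interactions. Of 79 tested cytosolic ribosomal protein genes, 16 were negative and 63 positive at a median of 0.09, but 46 were negative without TAC SFA-EAA replicate 1. Lipid droplet and sterol synthesis genes had 10 negative and 21 positive (median 0.12), and regulators of mitochondrial biogenesis 6 and 14 (0.05). With single libraries left out, their negative counts ran from 8 to 18 and from 6 to 11. The integrated stress response list had 14 and 10 (-0.17), aminoacyl-tRNA synthetases 12 and 9 (-0.08), cytokines 15 and 13 (-0.05) and interferon genes 13 and 12 (-0.02). Among cell type markers, cardiomyocyte genes had 1 and 11 (0.23), atrial genes 7 and 4 (-0.16), endothelial genes 8 and 9 (0.02), Schwann cell genes 5 and 8 (0.30), and erythroid and platelet genes 6 and 3 (-0.07). As single libraries were left out, the cardiomyocyte median ran from 0.01 to 0.37 and the atrial one from -1.96 to 1.085. All 5 tested granulocyte markers were positive (1.04), and of 7 tested adipocyte markers 4 were negative and 3 positive (-1.16). With single libraries left out, the granulocyte median ran from 0.51 to 2.56 and the adipocyte median from -2.15 to 0.04. Granulocyte markers summed to only 2.43 to 42.7 per library, so their median is limited by low signal.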
